A study of Mus musculus with 4 samples.

Results

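The EphA receptors are a family of receptor tyrosine kinases at the cell surface, and the 8 genes Epha1 to Epha8 of the deposited count table were examined here, of 24421 genes in all. They were taken by symbol. The family was chosen because Epha3 lay above both wild-type stages in both libraries of Ddx6 knockout (KO) embryos, so the comparisons of KO with wild type (WT) that follow are descriptions of the members and carry no test.

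EphA receptors bind mainly ephrin-A ligands, which are tethered to the membrane of a neighbouring cell by a lipid anchor, whereas EphB receptors bind mainly ephrin-B ligands, which span the membrane. Contact between the cells signals into both of them and usually leads to repulsion or to sorting of the cells, and the system is known for boundaries between hindbrain segments, for somite boundaries and for the guidance of axons. DDX6, the protein missing in the KO embryos, is an RNA helicase of mRNA decay and of translational repression, and it also acts in silencing by microRNAs (miRNAs).

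Polyadenylated RNA of whole ICR mouse embryos was sequenced in 4 stranded libraries. These were 1 WT library of embryonic day 7.5 (E7.5 WT), 1 WT library of E8.5 (E8.5 WT) and 2 E8.5 libraries of the genotype Ddx6 -/- (KO1 and KO2, after the replicate numbers in the labels). The KO allele lacks a floxed exon that was removed by a cross to a deletion line with Cre under the CAG promoter, so the disruption was not limited to a tissue. According to the study's text each KO library was a pool of embryos. Those of KO1 came from before and from after head-fold formation, those of KO2 from before it alone. Xist, the transcript of the inactive X chromosome, had 17340 reads in KO2, 15 in KO1, 17 in E8.5 WT and 46 in E7.5 WT. A KO effect, a delay, the mix of embryos, the tissue make-up of the libraries and, for KO2, the embryos' sex cannot be told apart in these data.

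Total counts were between 8198402 and 12562640 per library, and 16511 to 17112 genes had a count. Ddx6 itself was low in both KO libraries, with 706 reads in KO1 and 929 in KO2 beside 5715 in the WT library of the same day and 2943 in that of the day before (log2 changes -2.47 and -2.61 against E8.5 WT). Counts per gene do not show from which exons the remaining reads came. Lists of marker genes showed embryonic tissue in every library, but KO2 stood apart from KO1. The summed level of 10 primitive streak markers was 674 CPM (normalised counts scaled to a common library size) in KO2 and 182 in KO1, beside 163 for E8.5 WT and 608 for E7.5 WT. For 8 hindbrain markers it was 23.6 CPM in KO2 and 178 in KO1, beside 178 for E8.5 WT and 86.3 for E7.5 WT. For 8 trophoblast markers it was 1080 CPM in KO2 and 431 in KO1, beside 183 for E8.5 WT and 259 for E7.5 WT. Hand1, which is also a gene of the heart and mesoderm, made up 331 CPM of this in KO2, 422 in KO1, 181 for E8.5 WT and 216 for E7.5 WT. Prl3d1, a prolactin of trophoblast giant cells, had 4156 reads in KO2 and 3 in KO1. Tpbpa, a marker of the ectoplacental cone, had 0 reads in every library and Ctsj had 0 in all but KO2. Presomitic mesoderm and somite markers ranged over the libraries from 101 to 173 CPM. Forebrain and midbrain markers ranged from 90.8 to 216 (highest in KO2) and cardiac muscle from 32.7 to 298 (highest in E8.5 WT). Otx2 alone made up 169 CPM of the forebrain and midbrain sum in KO2, beside 60.7 in KO1, 57.2 for E8.5 WT and 69.6 for E7.5 WT. Of these 9 markers, 5 were lower in KO2 than in E8.5 WT by more than 1 on the log2 scale and 1 was higher, with a median of -1.18. Over 14393 genes, 850 were lower and 1354 higher. Visceral endoderm ranged from 4010 to 7170, lower in both KO libraries than in both WT libraries. Extraembryonic ectoderm ranged from 143 to 348 and decidua from 76.0 to 241, both highest in E7.5 WT, and leukocyte from 1.06 to 12.7. Decidua was at 220 CPM in KO2, 124 in KO1 and 76.0 for E8.5 WT, and its marker Prl8a2 had 1433, 64 and 26 reads there. Leukocyte markers, with few reads, were at 12.7 CPM in KO2, 1.55 in KO1, 1.06 for E8.5 WT and 5.21 for E7.5 WT. By more than 1 on the log2 scale, 2 of 5 decidua and 5 of 5 leukocyte markers with enough reads were higher in KO2 than in KO1 (5.99% of genes). Of 6 extraembryonic ectoderm markers, 4 were lower in E8.5 WT than in E7.5 WT by more than 1 on the log2 scale (7.82% of genes). The opposite held for 1. Elf5 had 795 reads in E7.5 WT and 3, 3 and 10 in E8.5 WT, KO1 and KO2. Stage and tissue make-up therefore cannot be told apart in comparisons with E7.5 WT. In bulk libraries such as these, fewer cells of a type and less RNA per cell cannot be told apart.

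Of the 8 members, 7 had at least 10 reads in at least 1 library and were kept for log2 changes. Epha3 passed this minimum through the KO libraries alone and Epha5 through E8.5 WT alone, so for both of them a difference was built into being kept. Epha6, which encodes a receptor known mainly from the nervous system, had 1 read in KO2 and 0 reads in the other libraries. Its gene (chromosome 16, 59653483 to 60605531, minus strand, GRCm38) was left out of the comparisons, since a level of up to 3 reads per library cannot be told from 0.

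The members differed widely in abundance within a library. Levels were compared between genes as RPKM, that is CPM divided by the kilobases of annotated exon. In E7.5 WT, Epha1 was at 30.3 RPKM (95% counting interval 28.7 to 31.9), which was 64.5% of the summed level of the family. Epha1 (chromosome 6, 42358487 to 42373268, minus strand) is a receptor known from epithelia and from the primitive streak. Epha2, a receptor of epithelia that also marks the primitive streak and node, followed with 9.08 RPKM (8.31 to 9.91), and Epha4, a receptor of hindbrain segments and motor axons, with 6.19 RPKM (5.70 to 6.71). The intervals of these 3 receptors did not overlap. Epha8 (0.749 RPKM, 0.540 to 1.01) and Epha7 (0.638 RPKM, 0.502 to 0.800) had overlapping intervals, and their order turned when the length of the longest transcript was used.

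A different order was seen a day later. In E8.5 WT, Epha1 was at 14.9 RPKM (13.8 to 16.0) and Epha4 at 14.2 RPKM (13.5 to 15.0), or 37.0% and 35.4% of the family, and these 2 levels were not separated by their intervals. With the longest transcript as the length, Epha4 was ahead of Epha1, with 36.0% against 35.5%. Epha2 followed with 6.89 RPKM (6.23 to 7.61), and then Epha7, a receptor of the neural tube and forebrain, with 3.39 RPKM (3.07 to 3.74). KO1 had the same order of members as E8.5 WT in the first 5 places, with Epha1 at 13.4, Epha4 at 12.7, Epha2 at 6.27, Epha7 at 2.51 and Epha8 at 1.26 RPKM, and here too the intervals of Epha1 (12.2 to 14.7) and Epha4 (11.8 to 13.5) overlapped. In KO2 the order was Epha1 (14.4 RPKM), Epha2 (10.4 RPKM), Epha4 (7.30 RPKM), Epha8 (3.76 RPKM) and Epha7 (1.55 RPKM), and the intervals of none of these neighbours overlapped.

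Epha3 remained a minor member of the family in the KO libraries in which it was high. It held 0.827% of the family's summed level in KO1 (0.301 RPKM) and 0.576% in KO2 (0.217 RPKM), against 0.116% in E8.5 WT (0.0468 RPKM). The sum over the 8 members was 36.5 RPKM in KO1 and 37.7 RPKM in KO2, against 40.2 RPKM for E8.5 WT and 47.0 RPKM for E7.5 WT.

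**Figure D1:**
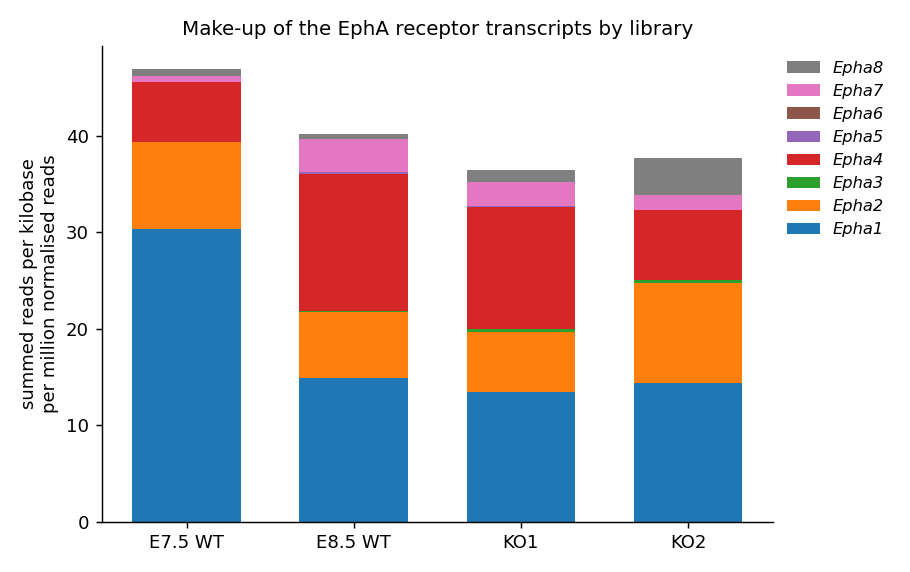
Stacked bars give the summed level of the 8 EphA receptors in each library, in RPKM, with 1 colour per gene and no error bars. Epha1 made up 64.5% of the E7.5 WT bar and between 36.8% and 38.2% of the other 3, Epha4 was larger in the bars of E8.5 WT and KO1 than in the other 2, and Epha8 reached 9.97% in KO2.

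The wild-type course of the family was described first. Between E7.5 WT and E8.5 WT, 4 of the 7 members kept were past a log2 change of 1, a 2-fold difference, towards E8.5 (12.2% of the 14393 genes kept were so), and 1 was past it towards E7.5 (7.82% of genes). The 4 include Epha5, which was kept through E8.5 WT alone, and Epha3, with 1 and 5 reads, and at a minimum of 50 counts 2 remained, so nothing is read from this count. The member that was lower at E8.5 was Epha1, with 1414 reads at the earlier and 718 at the later stage, a log2 change of -1.02 (95% interval -1.16 to -0.89). Its value lies at the threshold.

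Epha4, Epha7 and Epha5 were the members whose intervals lay above 0 in this direction. Epha4 (chromosome 1, 77367185 to 77515088, minus strand) had 593 and 1408 reads, a log2 change of 1.20 (1.06 to 1.34). Epha7 (chromosome 4, 28813131 to 28967499, plus strand) had 75 and 412 reads, a change of 2.38 (2.05 to 2.79). Epha5 (chromosome 5, 84054761 to 84417382, minus strand), a receptor of forebrain neurons, had 4 and 46 reads, a change of 2.93 (2.02 to 5.41). Epha3 also passed the threshold in this direction, but with 1 and 5 reads and an interval of -0.89 to 7.84 the direction could not be told at this depth. Epha2 (505 and 396 reads, log2 change -0.40) and Epha8 (42 and 32 reads, -0.41) did not pass the threshold. With 1 library per stage, intervals cover counting error only and these differences have no replicate check.

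**Figure D2:**
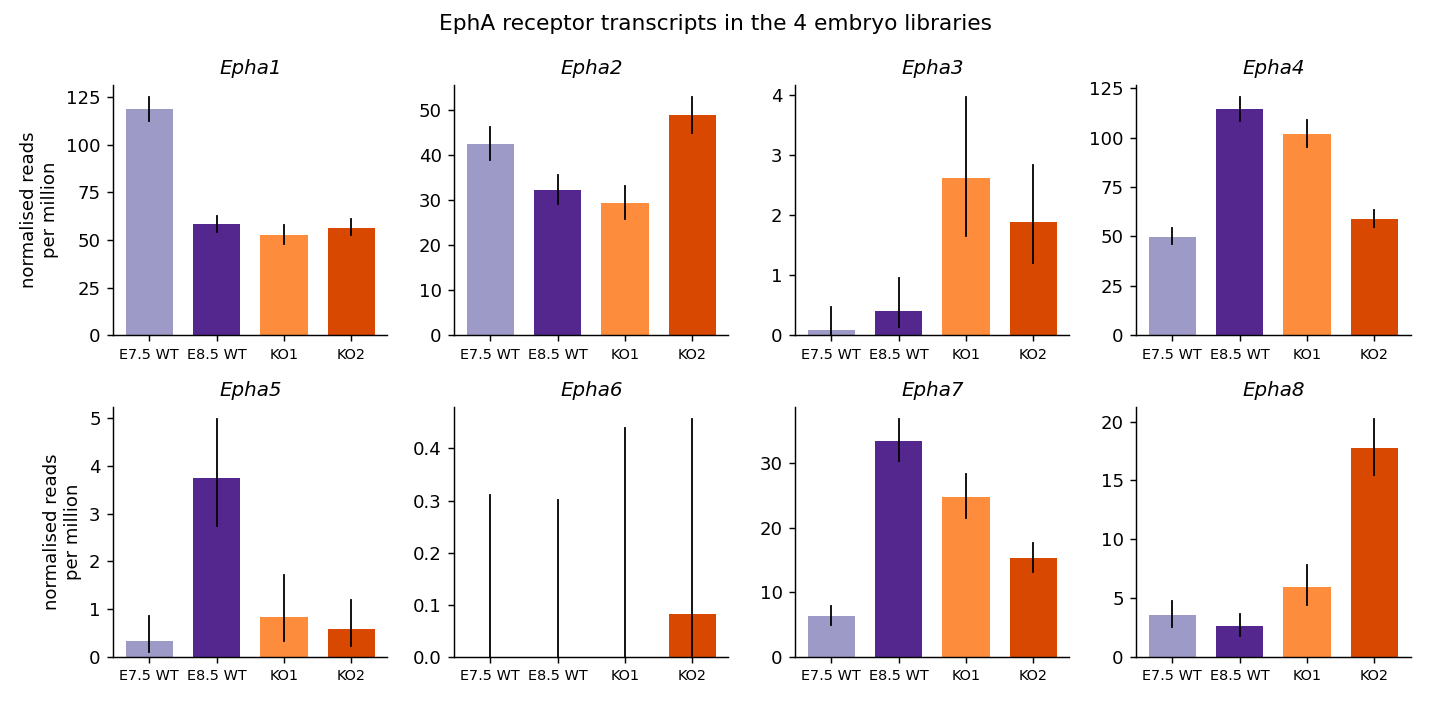
Each panel gives the level of 1 EphA receptor in CPM, on an axis of its own that starts at 0. Bars are single libraries and lines are exact 95% Poisson intervals of the read count, which cover counting error only. Epha3 was at 2.62 and 1.89 in KO1 and KO2 and at 0.0841 and 0.407 in E7.5 and E8.5 WT, whereas Epha1 was between 52.6 and 58.4 in all 3 E8.5 libraries.

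The next comparison asked how the KO embryos differed from WT embryos of the same day. Against E8.5 WT, 2 of the 7 members were higher by more than 1 on the log2 scale in both KO libraries (3.44% of all genes kept were) and 1 was lower by more than 1 in both (1.79% of genes). Since the family was chosen on this contrast, nothing is read from these counts. The median change of the 7 members was -0.15 in KO1 and -0.05 in KO2, beside -0.01 and -0.00 over all genes.

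Epha3 encodes a receptor that acts in axon guidance and in the formation of the heart's endocardial cushions. Its gene spans 321 kb of chromosome 16 (63543534 to 63864175, minus strand) and its longest annotated transcript has 17 exons. KO1 held 22 and KO2 23 reads of it, E8.5 WT held 5 and E7.5 WT 1. Both KO libraries were above both WT libraries, although KO1 was the shallowest library, and the 2 KO levels were not separated by counting error (KO2 against KO1 -0.44, -1.38 to 0.44). The log2 change against E8.5 WT was 2.26 in KO1 (1.25 to 4.44) and 1.82 in KO2 (0.79 to 3.97), with a mean of 2.04 ± 0.31 (SD, n = 2). As ratios of normalised reads, without the prior count of 2 that the log2 changes hold, KO1 was 6.44-fold (2.38 to 21.8) above E8.5 WT. KO2 was 4.64-fold (1.73 to 15.6) above it. The intervals of the log2 changes are those of these ratios. These values are the ones by which the family was chosen. All 4 libraries together held 51 reads of the gene, which leaves the size of the difference wide.

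Epha8, which encodes a receptor of midbrain neurons, was the other member above E8.5 WT. The gene (chromosome 4, 136929419 to 136956816, minus strand) had 50 reads in KO1 and 216 in KO2, beside 32 for E8.5 WT and 42 for E7.5 WT. KO2 was far above the other 3 libraries. The log2 change against E8.5 WT was 1.14 in KO1 (0.52 to 1.88) and 2.69 in KO2 (2.23 to 3.35), a mean of 1.91 ± 1.09 (SD, n = 2), and KO2 exceeded KO1 by 1.55 (1.12 to 2.05). Epha8 was also the member just outside the pattern for which Epha3 stood out. The smallest of the 4 differences from WT was 1.82 for Epha3 and 0.73 for Epha8, the latter between KO1 and E7.5 WT.

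Epha5 was the member below E8.5 WT in both KO libraries. Each KO library held 7 reads of it, E8.5 WT held 46 and E7.5 WT 4, so that both KO libraries lay near the earlier stage. The log2 change was -1.95 (-3.56 to -1.01) in KO1 and -2.38 (-4.10 to -1.55) in KO2, with a mean of -2.17 ± 0.30 (SD, n = 2).

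Epha7 and Epha4, the more abundant receptors of the neural tube, were lower than E8.5 WT mainly in KO2. Epha7 had 208 reads in KO1 and 187 in KO2, beside 412 for E8.5 WT and 75 for E7.5 WT, with changes of -0.43 (-0.68 to -0.19) and -1.12 (-1.38 to -0.87) against E8.5 WT. Epha4 had 857 and 716 reads in the KO libraries, beside 1408 and 593 at E8.5 and E7.5, with changes of -0.17 (-0.29 to -0.04) and -0.96 (-1.10 to -0.83). For both genes KO2 lay below KO1, with a change of -0.68 (-0.98 to -0.40) for Epha7 and of -0.79 (-0.94 to -0.65) for Epha4. Hindbrain markers moved with these values, since 6 of 8 were lower in KO2 than in KO1 by more than 1 (4.89% of all genes were), none was at 0 in any library, and Hoxb1 had 552 reads in KO1 and 60 in KO2. Presomitic mesoderm and somite markers did so in part, with 7 of 12 lower and 1 higher by more than 1 in KO2 than in KO1, and none at 0. Meox1, the marker with the largest decrease, had 235 reads in KO1 and 6 in KO2, and Mesp2, the higher one, had 10 and 72. Egr2, a transcription factor of alternating hindbrain segments that is known to activate Epha4, had 5 reads in KO1 and 4 in KO2, beside 35 for E8.5 WT and 7 for E7.5 WT. Unlike Epha4 it was low in both KO libraries, at -1.97 and -2.58 against E8.5 WT. Counting error did not separate its KO levels (KO2 against KO1 -0.61, -3.19 to 1.36). Forebrain and midbrain markers moved with Epha4 and Epha7 less, with 2 of 9 lower and 1 higher by more than 1 in KO2 than in KO1. The shares of all genes were 4.89% and 5.99%, and the list's median was -0.26. The part of these tissues in the levels of Epha4 and Epha7 was not tested.

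Epha1 and Epha2 did not pass the threshold against E8.5 WT. Epha1 had 442 reads in KO1, the shallowest library, and 689 in KO2, and its changes were -0.15 (-0.32 to 0.02) and -0.05 (-0.20 to 0.11), a mean of -0.10 ± 0.07 (SD, n = 2). Neither interval excluded 0, and the largest decrease they allowed was 0.32. Epha2 (chromosome 4, 141301240 to 141329384, plus strand) had 246 and 595 reads in KO1 and KO2, beside 396 and 505 at E8.5 and E7.5, with a change of -0.14 (-0.37 to 0.10) in KO1 and 0.60 (0.41 to 0.79) in KO2, so the KO libraries differed from each other more than their mean of 0.23 differed from E8.5 WT. KO2 was above KO1 in Epha2 by 0.73 (0.52 to 0.96). Primitive streak markers were higher by more than 1 in KO2 than in KO1 for 8 of 10 genes (5.99% of all genes were). None of these 10 was at 0 in any library. The same held for 5 of the 6 trophoblast markers kept, Ctsj and Tpbpa having too few reads. The part of these tissues, or of decidua and leukocytes, in the levels of Epha2 and Epha8 was not tested.

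**Figure D3:**
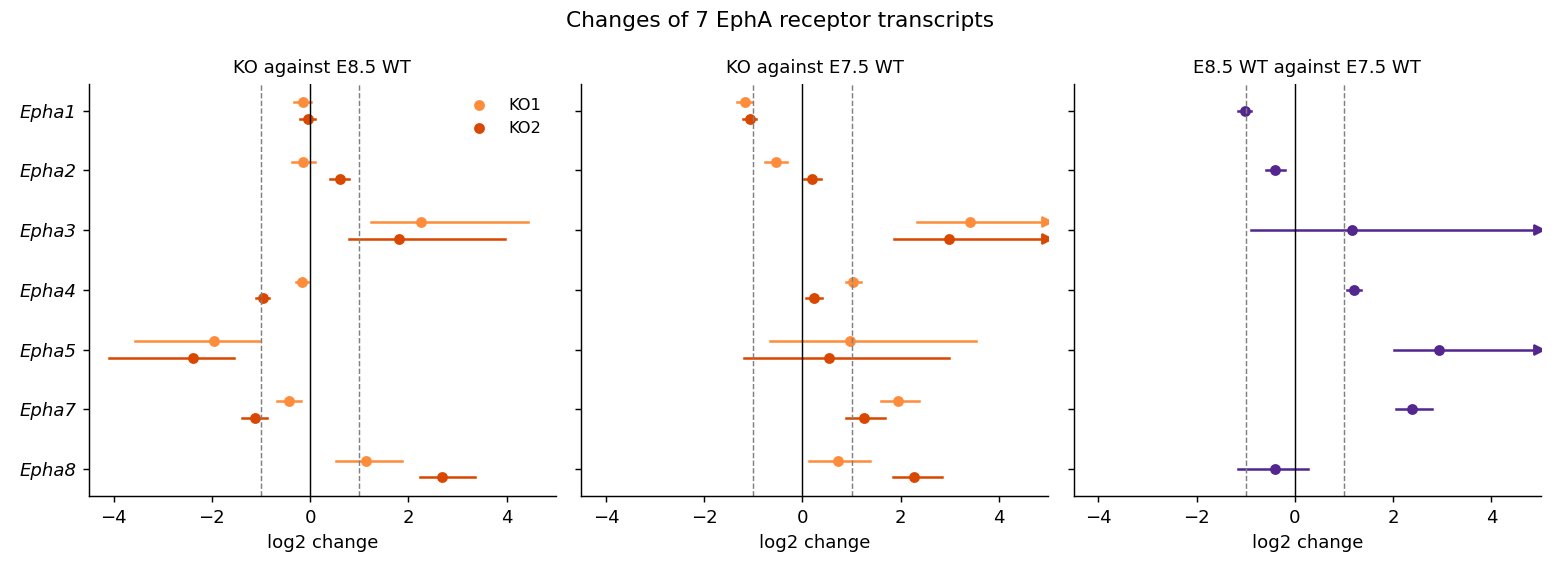
Points are log2 changes of CPM of the 7 members kept, for KO1 and KO2 against E8.5 WT and against E7.5 WT and for E8.5 WT against E7.5 WT. Lines are exact 95% binomial intervals of the reads, taken without the prior count that the points hold. Arrows mark intervals that run past the axis, and dashed lines mark changes of -1 and 1. Epha3 lay above 1 in both KO libraries in both comparisons, and Epha1 lay near 0 against E8.5 WT and below -1 against E7.5 WT.

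The comparison with the earlier stage asked how the KO embryos stood relative to WT embryos a day younger. It shares the KO libraries with the comparison above. Against E7.5 WT, 2 of the 7 members were higher by more than 1 in both KO libraries (6.91% of all genes kept), and 1 was lower (2.7% of genes). Epha1 was the lower one, with changes of -1.17 (-1.33 to -1.02) in KO1 and -1.07 (-1.21 to -0.94) in KO2. Its level was 52.6 CPM in KO1 and 56.5 CPM in KO2, beside 58.4 CPM for E8.5 WT and 119 CPM for E7.5 WT. The E8.5 libraries, WT and KO, thus stood together. The part of tissue make-up in the level of E7.5 WT was not tested.

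Epha7 was above E7.5 WT in both KO libraries, with log2 changes of 1.94 (1.59 to 2.37) in KO1 and 1.26 (0.89 to 1.69) in KO2. Both KO libraries were therefore between the 2 WT stages for this gene. Epha4 was past the threshold in KO1 only, with 1.03 (0.88 to 1.19) against 0.24 (0.08 to 0.40) in KO2, and KO2 lay close to the earlier stage. Epha5 differed from E7.5 WT by 0.97 (-0.67 to 3.53) and 0.55 (-1.20 to 2.99), which cannot be told from 0 at 4 to 7 reads.

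For Epha3 the E7.5 WT library held a single read, so only a ratio with its counting error can be given. KO1 was 31.2-fold (5.04 to 1290) and KO2 22.4-fold (3.65 to 925) above E7.5 WT, and the log2 changes with a prior count of 2 were 3.41 and 2.98. Epha3 was the 1 member above both WT libraries by more than 1 in both KO libraries, as were 108 genes in all, or 0.75% of those kept. This is the pattern by which the family was chosen, and nothing further is drawn from it.

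The KO libraries were also set against each other. KO2 was above KO1 by more than 1 in 1 of the 7 members, Epha8 (5.99% of genes were), and below it in 0 of 7 (4.89% of genes). The other members differed between the KO libraries by -0.79 to 0.73 on the log2 scale.

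DDX6 is a partner of miRNA-mediated silencing, and for that reason the 3′ UTRs of the members were searched for the sites of miRNA families known from the early embryo. The miR-290 and miR-302 clusters share a seed, that of the miR-17 family is offset from it by 1 base, and let-7 is known from differentiated cells. The mature sequences below are those of RefSeq (GRCm38.p6), with the seed, bases 2 to 8, in capitals.
mmu-miR-294-3p: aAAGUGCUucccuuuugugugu
mmu-miR-302b-3p: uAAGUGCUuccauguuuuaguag
mmu-miR-17-5p: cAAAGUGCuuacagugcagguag
mmu-let-7a-5p: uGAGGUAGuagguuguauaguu

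The words searched were the reverse complements of the seeds, AGCACTT for the seed shared by miR-290 and miR-302 (called the miR-290 seed here), GCACTTT for miR-17 and CTACCTC for let-7, on the transcript's strand alone. The first 2 overlap, so that a stretch AGCACTTT holds both. Among 13821 genes kept with an annotated 3′ UTR (median length 1194 bases), 17.4% held the first word, 14.5% the second and 10.8% the third in the longest annotated 3′ UTR. A match of letters is a description and not evidence of a site in use.

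Epha3, whose level was high in both KO libraries, held none of the 3 words in a 3′ UTR of 2597 bases, and neither did Epha8 (1629 bases), Epha1 (281 bases) or Epha6 (537 bases). The let-7 word was in none of the 8 members. Matches to the other 2 words were in Epha2, Epha4, Epha5 and Epha7. They are printed to show where in these 4 transcripts the matches lie, with the word in capitals and its first and last base counted from the base after the stop codon (GENCODE M21 transcripts, GRCm38).
Epha2 bases 212 to 218 of 866, miR-290 seed: ggacccagctaAGCACTTagcagtttgcca
Epha4 bases 49 to 55 of 3310, miR-17: acctcatccatGCACTTTaattgaagaact
Epha4 bases 68 to 74 of 3310, miR-17: attgaagaactGCACTTTttttactttgtc
Epha5 bases 36 to 42 of 4281, miR-290 seed: gtgaacaactcAGCACTTtgtaaacaaccc
Epha5 bases 3158 to 3164 of 4281, miR-290 seed: actatcagttgAGCACTTatacatttgcat
Epha7 bases 2156 to 2162 of 3496, miR-290 seed: aacctcagtatAGCACTTtacaattctaat
Epha7 bases 805 to 811 of 3496, miR-17: aatactataagGCACTTTtaacagattgtt

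In Epha5 and Epha7 the stretches at bases 36 and 2156 continue with a T and hold both words at once. Epha5, with 2 matches to the miR-290 word and 1 to the miR-17 word, was the member below E8.5 WT in both KO libraries. Epha2, with 1 match to the miR-290 word, was at -0.14 and 0.60 against E8.5 WT in KO1 and KO2. Epha7, with 1 match to it and 2 to the miR-17 word, was at -0.43 and -1.12. Epha4, with 2 matches to the miR-17 word, was at -0.17 and -0.96. Epha5 was kept through E8.5 WT alone, and a relation between matches and changes was not tested. The paper cites earlier work in mouse embryonic stem cells in which DDX6 loss affected only repression of translation by miRNAs. RNA counts do not measure translation. Whether any of these matches is bound by a miRNA in the embryo was not measured here.

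The receptors and ligands that work with the EphA family were then examined. The lists hold the family's known partners but were compiled with earlier results of these data known, and the edgeR quasi-likelihood test of KO against E8.5 WT was fitted over all 14393 genes. That test called 0 genes (0.0%) after Benjamini-Hochberg adjustment, with 1039 at an unadjusted p under 0.05 and a smallest adjusted p of 0.0719, and DESeq2 called 35. Its spread came from the 2 KO libraries only. Ddx6, the disrupted gene, was itself not called by edgeR (adjusted p 0.193) and was called by DESeq2 (adjusted p 2.23e-28), so a gene that did not pass edgeR is not shown to be unaffected.

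Among the EphB receptors and Epha10, a receptor without kinase activity, 0 of 6 were past a log2 change of 1 in both KO libraries in either direction. The edgeR test passed 0 of them, with a smallest adjusted p of 0.669 and 0 at an unadjusted p under 0.05, and DESeq2 also passed 0 (it gave no adjusted p for Epha10). The list's median change was -0.02 in KO1 and -0.37 in KO2, beside -0.01 and -0.00 over all genes.

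Ephb4, a receptor of venous endothelium and the most abundant of these per length (30.0 to 38.0 RPKM), had 1482 reads in KO1 and 1695 in KO2, beside 1990 for E8.5 WT and 1953 for E7.5 WT. Its changes were 0.12 and -0.22, and the 4 libraries were close to each other. From here on, 4 read counts in a row are those of the earlier and the later WT stage, KO1 and KO2, and pairs of changes are those of KO1 and KO2 against the WT library of their day. Ephb2, which acts in axon guidance, had 286, 1039, 637 and 555 reads, a change of 1.81 between the WT stages, and -0.16 and -0.89 in the KO libraries. Ephb1, a receptor of retinal axons, had 140, 425, 370 and 268 reads, with 1.54 between the stages and 0.35 and -0.65 in the KO libraries. For both genes KO2 was below KO1 and above E7.5 WT, as for Epha4 and Epha7. Ephb3 (653, 689, 368 and 478 reads) was at -0.35 and -0.51, and Ephb6, a receptor without kinase activity, at 0.31 and 0.30 (129, 118, 100 and 145 reads). Epha10 had 13, 11, 3 and 16 reads, too few to tell a direction.

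Of the ephrins, 0 of 8 passed the threshold in both KO libraries, and the edgeR test passed 0, with a smallest adjusted p of 0.669 and 0 at an unadjusted p under 0.05. DESeq2 passed 0 as well. The median change was 0.29 in KO1 and -0.26 in KO2.

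The ephrin-A ligands are those that the EphA receptors bind. Efna3 had 237, 44, 41 and 196 reads. KO1 was near E8.5 WT and KO2 near E7.5 WT, with changes of 0.43 and 2.11. Against the earlier stage they were -1.99 and -0.31. Efna2 had 357, 345, 362 and 454 reads and was at 0.62 and 0.41. Efna4 had 404, 341, 308 and 489 reads and was at 0.40 and 0.53. Both of these were above E8.5 WT in 2 of 2 KO libraries, by a mean of 0.51 ± 0.15 and 0.46 ± 0.09 (SD, n = 2). Efna5, a ligand of axon guidance, had 390, 722, 516 and 633 reads, at 0.06 and -0.18, and Efna1, a ligand of endothelium and epithelium, had 211, 204, 107 and 117 reads, at -0.38 and -0.78.

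Among the ephrin-B ligands, Efnb1 had 1194, 1893, 1471 and 870 reads, with changes of 0.19 and -1.11. The KO libraries were on opposite sides of WT. Efnb1 is on the X chromosome, and Xist, the transcript of the inactive X, had 46, 17, 15 and 17340 reads in the same order. The part of the embryos' sex in the level of Efnb1 was not tested. Efnb2, a ligand of arterial endothelium, had 771, 1281, 933 and 1001 reads, at 0.09 and -0.34, and Efnb3, a ligand of the neural midline, had 258, 506, 455 and 356 reads, at 0.39 and -0.49.

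**Figure D4:**
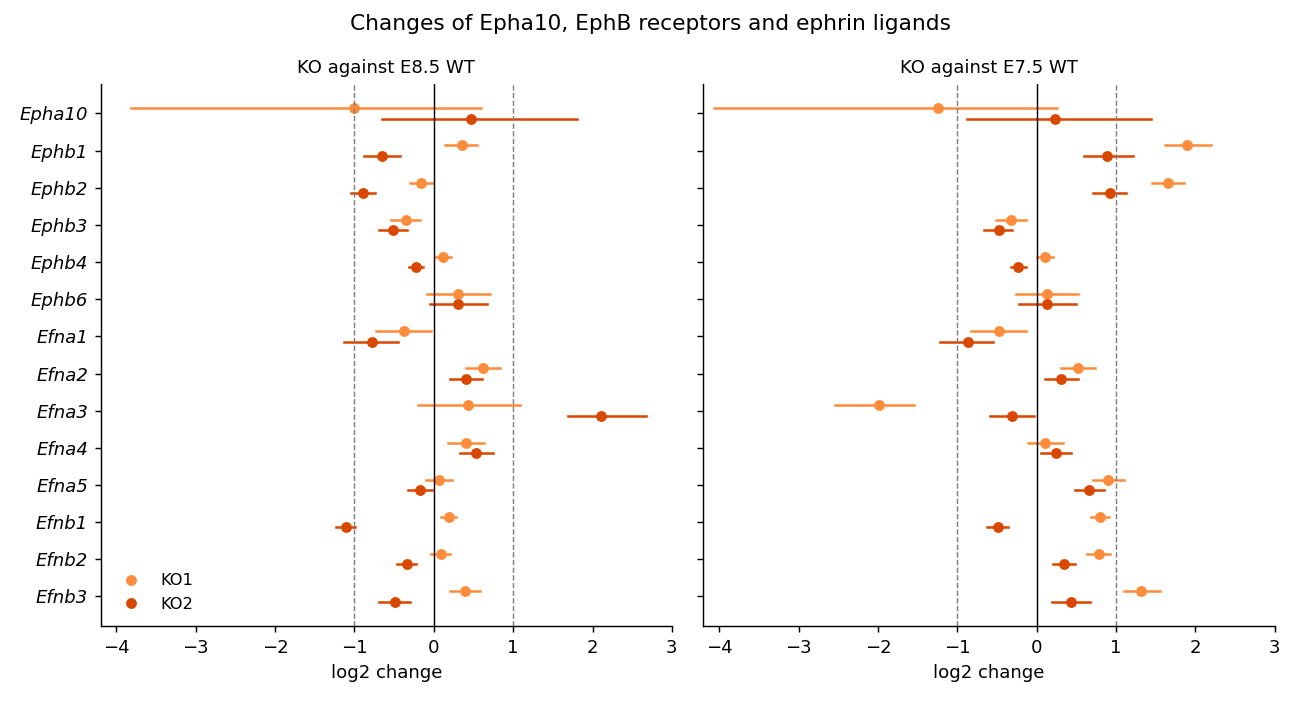
Points are log2 changes of CPM of Epha10, the EphB receptors and the ephrins for KO1 and KO2. They are against E8.5 WT on the left and against E7.5 WT on the right. Solid lines are exact 95% binomial intervals of the reads, without the prior count that the points hold, and dashed lines mark -1 and 1. Against E8.5 WT none of the 14 genes had both points past the same dashed line, and the KO points of Efna3 lay at 0.43 and 2.11.

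Transcripts of the proteins that carry the signal inside the cell were read in the same way. Of 24 adaptors, kinases and other signalling proteins of the pathway, 0 passed the threshold in both KO libraries against E8.5 WT, with medians of -0.04 in KO1 and -0.10 in KO2. The edgeR test passed 0, with a smallest adjusted p of 0.669 and 1 at an unadjusted p under 0.05. Src, a kinase recruited by many receptors, had 1037, 886, 1052 and 1453 reads and was at 0.80 and 0.72. Adam10, the protease that sheds ephrin-A ligands, was at -0.01 and 0.00. Src and Adam10 lie outside the rule for named genes and were picked with their values in view.

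The nearest genes on the chromosome were read beside the members. Epha3 lies in a gene-poor stretch. Its nearest genes were 614 kb away on both sides, and of these Pros1, which encodes the anticoagulant protein S, had changes of 0.30 and -0.12 and Csnka2ip had 0 reads in every library. Zbtb40, next to Epha8, was at -0.35 and 0.12. Both neighbours of Epha2 leaned the way of Epha2 in KO2, with Arhgef19 at 0.67 and 1.61 and Fam131c, with 3 to 13 reads, at 0.63 and 1.56. Pax3, a factor of the dorsal neural tube and somites and the gene 586 kb from Epha4, was at -0.91 and -3.40. Fam131b, next to Epha1, was at -0.92 and -0.82, and Cenpc1, next to Epha5, at -0.32 and -0.31, neither close to its member. Zyx lies over the span of Epha1 on the other strand, and the counting was strand-specific.

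Lastly, the genes with a pattern across the 4 libraries most like that of Epha3 were listed. The measure was the Euclidean distance between log2 CPM centred on each gene's mean, over 4 libraries and the 11222 genes whose mean count was 50 or more. The nearest was Wscd2 at a distance of 0.566, with 18, 54, 105 and 159 reads. Tnc, which encodes the matrix protein tenascin C, followed at 0.771 with 45, 156, 246 and 330 reads. Igdcc4 was at 0.839 (84, 158, 381 and 322 reads), Mical2, an actin oxidase, at 0.91, and Chst15, a sulfotransferase, at 0.999. The list depended on the settings, since 2 of the 5 stayed when the minimum mean was 200 counts and 2 when the prior count was 0.5. Much closer neighbours were found for the more abundant members, namely Slc3a2 for Epha1 (0.0341), Ldb2 for Epha2 (0.0739), Plagl2 for Epha4 (0.0888), Ptch1 for Epha7 (0.139) and Irgm1 for Epha8 (0.223). Ptch1, the Hedgehog receptor, had 582, 2765, 1537 and 1316 reads, the same order of libraries as Epha7.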

How the data were processed

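The authors deposited raw counts per gene for the 4 libraries. Per the authors' methods and processing notes, reads were trimmed with Cutadapt 2.8, checked with FastQC 0.11.7, aligned to mm10 with HISAT2 2.1.0, sorted with SAMtools 1.9 and assigned to exons by strand with featureCounts 2.0.0. Counts were scaled here with TMM factors (trimmed mean of M-values, edgeR 4.0.16 in R 4.3.3), and a gene was kept when 1 library or more had 10 counts of it. Log2 changes used a prior count of 2 and a threshold of 1, the latter after the study's methods. Intervals of changes are those of the ratio of normalised reads, without the prior count. At few reads the printed change therefore lies nearer 0 than that ratio. Intervals are exact, 95% (Clopper-Pearson for changes, Poisson for levels), and hold counting error alone, because no molecular identifiers were used and several reads may stem from 1 molecule. The edgeR quasi-likelihood test was two-sided with Benjamini-Hochberg adjustment at 0.05, and DESeq2 1.42.0 was the alternative. Lengths and positions came from GENCODE M21 (GRCm38, the assembly of mm10), which matched 24046 genes (98.5%). Labels give the KO libraries as replicates without naming separate litters. Members and lists were chosen with earlier results of these data known. Genes named were the members, their partners, markers, chromosomal neighbours and nearest patterns, and, of the 24 adaptors, any called in both KO libraries, with exceptions stated. No protein sequences were used here. Figures were drawn with matplotlib 3.10.9 (Python 3.11.15).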

Additional observations from a re-analysis of the deposited data

How the results depend on the processing

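Across 318 values recomputed under alternatives, 292 stayed within the limit set for them. Among changes, a reversal was counted only past the threshold, and 0 were found. Below it signs did change, as for Epha2 against E8.5 WT, at 0.23 with both KO libraries and -0.14 without KO2. Leaving out a KO library cannot exceed the limit of a mean change, which was the SD of the 2. Another minimum count left the changes of kept members as they were by construction. A minimum of 50 counts removed Epha3 and Epha5, leaving 1 member higher and 0 lower against E8.5 WT, 1 higher against E7.5 WT and 2 higher between the WT stages. With a threshold of 1.5-fold, KO2 differed from KO1 in 2 members up and 2 down, and 1 adaptor was higher than E8.5 WT. With a threshold of 2 on the log2 scale, 0 members were higher and 0 lower against E8.5 WT, 1 and 0 against E7.5 WT, 2 and 0 between the WT stages, and 0 higher in KO2 than in KO1. A prior count of 0.5 put the mean change of Epha3 against E7.5 WT at 4.14 where the value reported is 3.19. Plain CPM put the median of the adaptors at -0.01 where TMM gave -0.07. Leaving out each KO library in turn gave 1 to 2 members lower than E8.5 WT, the 2 without KO1, where Epha7 joins. It gave 0 to 1 ephrins higher and 0 to 1 lower and 0 to 1 adaptors lower, each 1 without KO1 (for the ephrins, Efna3 and Efnb1), and 0 to 1 of the EphB receptors and Epha10 lower, the 1 being Epha10 without KO2. The 5 patterns nearest to Epha3 shared 2 genes with those at a minimum mean of 200 counts and 2 with those at a prior count of 0.5. The edgeR test called 1 gene with DESeq2 size factors and 7 without the filter, and DESeq2 called 35. Its form without 1 KO library was not run, since no residual degrees of freedom remain. No paired analysis was possible because each WT stage had 1 library, so the KO replicate numbers had no partner. Depth limits Epha3, Epha5 and Epha6 most, with 51, 64 and 1 reads over the 4 libraries.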
